A study of Mus musculus with 179 samples.

Results

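The ventral tegmental area (VTA) was compared between adult male mice raised under early life stress (ELS) and adult males raised under standard conditions, neither of which met any stress as adults. The members were the 8 undefeated male VTA libraries out of 179 samples in the series, chosen by their labels: 4 libraries of ELS controls and 4 libraries of standard-reared controls. All mice were C57BL/6, and each male VTA library pooled punches of 3 mice, so the spread between libraries is a spread between pools. A further 2 pairs of groups were set beside them. Defeated males gave 6 libraries of ELS males and 6 of standard-reared males, all of which had met chronic social defeat, repeated attacks by an aggressive male, in adulthood. Unstressed females, from a separate cohort and a separately normalised table, gave 5 libraries raised under ELS on postnatal days 10 to 20 and 6 raised under standard conditions. Their fit also held 6 ELS and 5 standard libraries of females that met variable stress (labelled STVS) as adults, which were not compared here. The labels of the male VTA libraries do not give the days of ELS. Tissue was taken in the light phase 24 hours after behavioural testing, per the labels.

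The VTA holds midbrain dopamine neurons that project to the nucleus accumbens and prefrontal cortex and signal reward and its absence, together with GABA and glutamate neurons. It is a small region, bordered by the hypothalamus and mammillary bodies in front, the red nucleus and thalamus above, the raphe nuclei behind and the meninges below, so a punch can carry tissue of its neighbours. Early life stress disturbs maternal care in the pup period, and rodents so raised are known for a stronger response to stress in adulthood. Glucocorticoids, the stress hormones of the adrenal gland, act on the brain through nuclear receptors that switch on a set of target genes and restrain the inflammatory factor NF-kappa-B.

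Expression was deposited as RPKM, reads scaled by transcript length and by the reads mapped in the library, which allows levels to be compared between genes. Whole reads could be recovered behind the RPKM values, and came to 28.2 to 33.4 M in ELS libraries and 27.9 to 33.8 M in standard libraries. Differences are given on the log2(RPKM + 1) scale as ELS minus standard, with their standard error (SE), and they understate the change of low genes. The dissected region was checked on Th, the rate-limiting enzyme of dopamine synthesis, and on Slc6a3, the dopamine transporter: both lay above 100 RPKM in every one of the 8 libraries. Because the tissue was taken in bulk, fewer cells of a type and less RNA per cell cannot be told apart.

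Several libraries stood apart from the rest, as judged after the values and the comparison had been seen. ELS control 2 carried genes of thalamic neurons: Prkcd, a protein kinase C of thalamic relay neurons, had 2.23, 97.0, 4.00 and 2.17 RPKM in the 4 ELS libraries, against 2.91, 2.89, 4.25 and 3.18 RPKM in the 4 standard libraries. A list of 8 thalamic genes, put together after the values were seen, summed to 318.4 RPKM in that library and to at most 34.9 RPKM in the other 7. Standard control 1 carried meningeal genes such as Fmod, Ogn and Igf2, and a list of 8 of these, also put together afterwards, summed to 259.8 RPKM there and to at most 97.5 RPKM elsewhere. Standard controls 3 and 4 carried hypothalamic genes, with a summed level of hypothalamic and mammillary genes of 152.4 and 67.7 RPKM, against 11.7 to 29.9 RPKM over the 4 ELS libraries and 13.1 and 28.0 RPKM in the other two standard libraries. Values without single libraries are given beside the results that they move most.

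**Figure D1:**
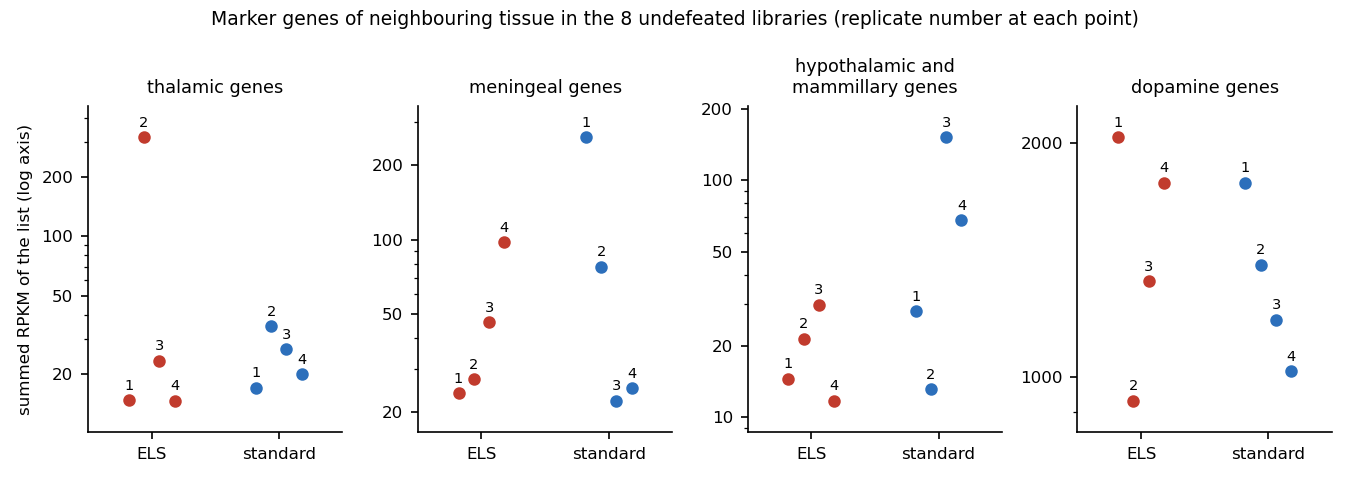
Summed RPKM (log axis) of 4 marker lists in the 4 ELS libraries (left in each panel) and the 4 standard libraries (right); each point is 1 library and carries its replicate number. ELS control 2 lies alone for thalamic genes at 318.4 RPKM, standard control 1 lies highest for meningeal genes at 259.8 RPKM, and standard controls 3 and 4 lie highest for hypothalamic and mammillary genes.

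No gene passed the test for ELS alone. Of 14586 genes with a mean of at least 0.5 RPKM, limma called 0 at an adjusted p under 0.05, and the lowest adjusted p was 0.999; edgeR on the recovered reads called 0 of 14233. At an unadjusted p under 0.05 limma had 296 genes (2.03% of those tested), 86 higher in ELS libraries (0.590%) and 210 lower (1.44%), and edgeR had 333. The direction of this excess depended on the scaling, since quantile normalisation gave 196 higher and 123 lower and edgeR gave 207 higher and 126 lower. It also depended on the libraries: the genes higher ran from 50 without standard control 4 to 194 without ELS control 3, where 449 were lower. Without ELS control 4 there were 172 higher and 182 lower, without ELS control 2 there were 100 and 137, and without ELS control 2 and standard control 1 there were 180 and 159. Differences were small: from the 5th to the 95th percentile they lay between -0.17 and 0.11, around a median of -0.02, the median SE was 0.07, 96 genes reached an absolute difference of 0.5 and 5 reached 1. Most genes, 9149 of 14586 (62.7%), lay lower in ELS libraries, and this share is the background against which the lists below are read. In 213 genes (1.46%) the 4 ELS and the 4 standard libraries did not overlap, 59 with ELS libraries higher (0.404%) and 154 with ELS libraries lower (1.06%). The genes named next were the 12 of smallest p in each direction among these, and the adjusted p of each was 0.999. If no gene differed, more than 296 genes would on average pass an unadjusted p of 0.05. A random order of the libraries would likewise separate more than 213 genes on average. Lack of overlap therefore served only to choose genes to describe.

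Nfkbia encodes I-kappa-B alpha, the inhibitor that holds NF-kappa-B in the cytoplasm, and is itself a target of both NF-kappa-B and glucocorticoids. It lies on the minus strand at chr12:56590398-56593634 (build mm9). It had 10.2, 9.68, 10.2 and 9.33 RPKM in ELS libraries, against 14.9, 13.8, 10.9 and 11.3 RPKM in standard libraries, a mean of 9.84 ± 0.42 against 12.7 ± 1.96 RPKM (SD, n = 4 each). All 4 ELS libraries lay below all 4 standard libraries, and the ELS libraries lay closer together. The difference was -0.33 (SE 0.09, unadjusted p under 0.05), and without standard control 1, its highest library, it was -0.25. Among defeated males, which share no library with these, Nfkbia averaged 9.02 ± 0.70 RPKM after ELS and 10.9 ± 1.17 RPKM after standard rearing (SD, n = 6 each), a difference of -0.24 (SE 0.07, unadjusted p under 0.05), with the 2 groups overlapping between 9.45 and 9.68 RPKM. In unstressed females the difference was 0.05 (SE 0.10).

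The promoter of Nfkbia is shown because this NF-kappa-B target had no overlap among undefeated males and a lower ELS mean among defeated males too. The sequence is the 250 bases before the start site in RefSeq (chr12:55492648-55492897, minus strand, build GRCm38.p6, a later build than that of the files), and the capitals mark its match to a kappa-B motif (GGG, any 2 bases, then TTTCC, searched on both strands), here on the strand opposite to the gene and starting 29 bases before the start site.
Nfkbia promoter: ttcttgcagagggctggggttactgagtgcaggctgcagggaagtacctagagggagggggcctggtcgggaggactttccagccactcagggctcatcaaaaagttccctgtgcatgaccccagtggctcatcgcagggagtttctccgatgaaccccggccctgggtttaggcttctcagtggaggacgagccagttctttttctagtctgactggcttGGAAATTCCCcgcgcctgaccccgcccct

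This motif occurred in 464 of 32851 promoter windows of the same length (1.41%), in 447 of 27025 genes (1.65%), and in 5 of the 15 genes of the NF-kappa-B and cytokine list that have a RefSeq promoter. The other 4 are shown with up to 10 bases on each side of the motif, so that the sites can be set beside the levels of their genes. Rel is at chr11:23771041-23771070, Tnfaip3 at chr10:19015411-19015432, Il6 at chr5:30013060-30013089, and the alternative promoters of Nfkb2 at chr19:46304716-46304736 and chr19:46305695-46305724 (all GRCm38.p6).
Nfkb2, first promoter: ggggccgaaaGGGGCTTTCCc
Nfkb2, second promoter: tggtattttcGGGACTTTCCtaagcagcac
Rel: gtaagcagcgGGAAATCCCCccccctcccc
Tnfaip3: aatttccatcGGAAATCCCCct
Il6: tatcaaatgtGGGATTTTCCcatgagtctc

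In none of these 4 genes did the ELS and standard libraries separate. Nfkb2, which encodes an NF-kappa-B subunit, had 1.44, 0.990, 1.59 and 1.36 RPKM in ELS libraries, against 1.28, 1.47, 1.11 and 1.13 RPKM in standard libraries (difference 0.06, SE 0.09, or 0.13 without ELS control 2 and 0.0066 without ELS control 3). Rel, another subunit, had 0.577, 0.513, 0.609 and 0.566 RPKM in ELS libraries, against 0.654, 0.644, 0.483 and 0.728 RPKM in standard libraries (difference -0.05, SE 0.06, or -0.10 without standard control 3 and -0.02 without standard control 4). Tnfaip3, a ubiquitin-editing inhibitor of the pathway, and the cytokine Il6 lay under the level tested, at no more than 0.533 and 0.0646 RPKM in any of the 8 libraries. Over the NF-kappa-B and cytokine list, 13 of 20 genes were tested, 1 was higher and 12 lower in ELS libraries, and Nfkbia alone passed an unadjusted p of 0.05 or was without overlap; 0 were called. The median difference was -0.05. Without ELS control 2 it was -0.03 with 4 genes higher, and without ELS control 2 and standard control 1 it was -0.01 with 5 genes higher and 8 lower. In defeated males 9 genes of the list were higher after ELS and 4 lower, with a median of 0.02, beside 55.3% of all genes higher. Among the 15 genes tested in females 11 were higher and 4 lower, with a median of 0.04. A half-site of the glucocorticoid receptor (AGAACA, both strands) had no match in the Nfkbia window, and occurred in 4 of 18 genes of the glucocorticoid-responsive list (22.2%) and in 18.2% of all genes.

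Genes that glucocorticoids induce lay mostly lower in ELS libraries. Of 20 genes on the list, 19 were tested: 3 were higher and 16 lower, with a median difference of -0.10, beside -0.02 over all genes. No member was called, and 1 (Nfkbia) was lower at an unadjusted p under 0.05, against 1.44% of all genes. Without ELS control 2 and standard control 1 the list had 5 members higher and 14 lower, at the same median of -0.10, and when each library was left out in turn the median ran from -0.16 without standard control 4 to -0.055 without standard control 2. The largest number of members higher, 7 of 19, was found without standard control 1, at a median of -0.06. A lower level of such genes in male VTA after ELS was already known from these data when the list was drawn up, so its direction is a description.

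Sgk1, a kinase induced by glucocorticoids, had the lowest difference on the list. Its levels were 15.1, 14.1, 11.9 and 11.4 RPKM in ELS libraries, against 21.4, 30.5, 19.1 and 10.3 RPKM in standard libraries, a difference of -0.51 (SE 0.26). Here 3 of the 4 standard libraries lay above every ELS library and standard control 4 lay below them all. Without standard control 2 the difference was -0.30 and without standard control 4 it was -0.79. Arrdc2, an arrestin-domain protein, had 7.85, 6.82, 7.75 and 7.74 RPKM in ELS libraries, against 9.87, 11.6, 8.64 and 7.21 RPKM in standard libraries (-0.26, SE 0.14), and standard control 4 was the one standard library within the ELS range. Without standard control 2 it differed by -0.16. Fkbp5, a co-chaperone of the glucocorticoid receptor, overlapped between the groups, with 3.62, 4.61, 3.34 and 3.95 RPKM in ELS libraries and 5.89, 3.75, 4.11 and 3.57 RPKM in standard libraries. Its difference of -0.11 (SE 0.17) rested on standard control 1, and was 0.015 without it. Sgk1, Arrdc2 and Fkbp5 were picked out after their values were seen, as were the receptors and the defeated values named next. Of the 2 receptors of these hormones, Nr3c1, the glucocorticoid receptor, differed by 0.09 (SE 0.08), or -0.011 without ELS control 2, and Nr3c2, the mineralocorticoid receptor, by 0.01 (SE 0.11), or -0.016 without that library.

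The same list was also lower after ELS among defeated males, in libraries that the undefeated comparison does not use. Its members were chosen with earlier results of these data known, so this direction too is a description and no separate check. All 19 tested members had a negative difference among defeated males, where 44.7% of all genes did, and the median was -0.14. At an unadjusted p under 0.05, 6 of the 19 were lower, beside 1.23% of all genes, and none was higher, beside 4.54% of all genes; 0 were called. Sgk1 differed by -0.93 (SE 0.21), Arrdc2 by -0.37 (SE 0.11), Pdk4, a kinase that limits glucose oxidation, by -0.24 (SE 0.07), and Ddit4, a stress-induced inhibitor of mTOR signalling, by -0.20 (SE 0.07). Nfkbia and Tsc22d3 were the other 2. For Sgk1 the undefeated difference was less negative than the defeated one by 0.42, with an unadjusted limma p of 0.230. In females 13 of the 19 tested members were lower and 6 higher, with a median of -0.03, and Arrdc2 had a difference of -0.25 (SE 0.08, unadjusted p under 0.05).

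**Figure D2:**
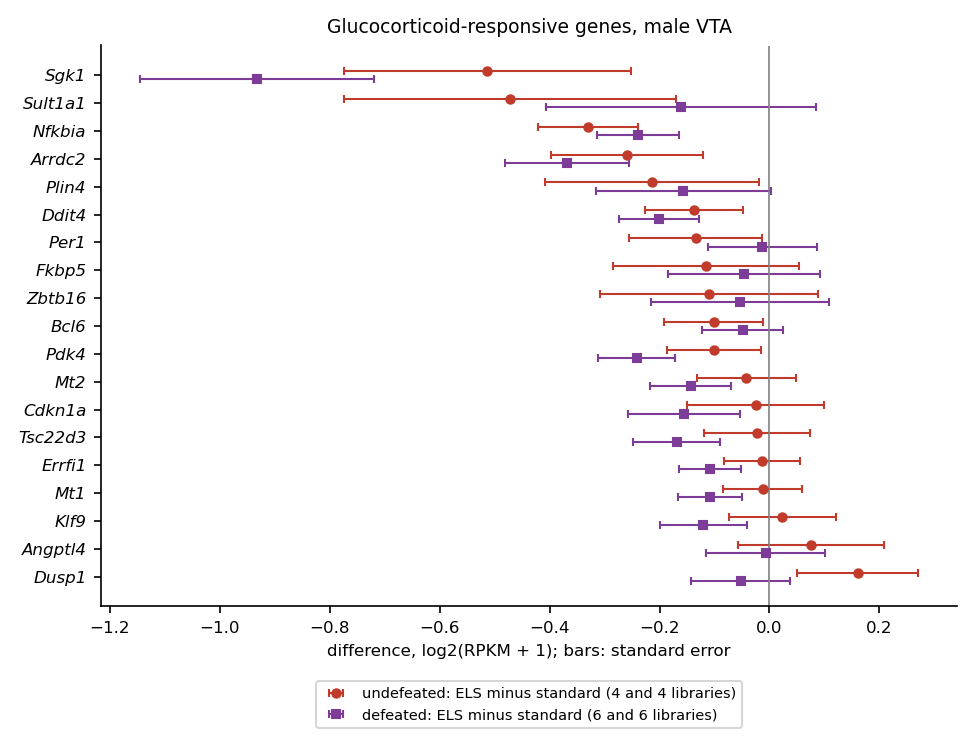
Difference ELS minus standard, log2(RPKM + 1), of the 19 tested glucocorticoid-responsive genes in undefeated males (circles, 4 and 4 libraries) and defeated males (squares, 6 and 6 libraries), with standard errors. The defeated differences are negative for all 19 genes and the undefeated ones for 16, and the lowest in both is Sgk1.

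Of the other genes that were lower in ELS libraries without overlap, most differed by little. Rnaset2b, a secreted ribonuclease, had 1.22, 1.07, 1.03 and 1.23 RPKM in ELS libraries, against 1.69, 1.60, 1.52 and 1.53 RPKM in standard libraries (-0.28, SE 0.07). The near-identical copy Rnaset2a can share its reads, so the value is uncertain. Kazald1, a secreted protein with a protease-inhibitor domain, had 5.61, 5.55, 5.3 and 4.8 RPKM in ELS libraries, against 6.13, 5.67, 6.98 and 7.04 RPKM in standard libraries (-0.24, SE 0.07). Trip10, an adaptor between membranes and the actin cytoskeleton, had 2.68, 2.41, 3.01 and 2.83 RPKM in ELS libraries, against 3.53, 3.54, 3.18 and 3.51 RPKM in standard libraries (-0.25, SE 0.08). The gap between the groups exceeded the range within each of them in Rnaset2b, and was narrower than both ranges in Kazald1 and Trip10. Tnfrsf21, a death receptor of the tumour necrosis factor family, was the most abundant, with 30.1, 29.4, 30.9 and 30.5 RPKM in ELS libraries, against 32.2, 32.7, 33.6 and 34.4 RPKM in standard libraries (-0.13, SE 0.04). Med27 (a Mediator subunit), Slc20a2 (a phosphate transporter), Zswim1, Tbc1d23 (a Golgi vesicle tether), Bola1 (a mitochondrial protein) and Haus7 (a spindle protein) differed by -0.12 to -0.17.

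Rln3, the neuropeptide relaxin-3, had the largest difference among the 24 genes named for lack of overlap. Its levels were 2.85, 5.18, 0.146 and 4.18 RPKM in ELS libraries, against 22.5, 6.26, 6.02 and 7.98 RPKM in standard libraries (-1.56, SE 0.54). Standard control 1 was far above the rest, and without it the difference was -1.16; without ELS control 3, the lowest, it was -1.03. Relaxin-3 is made by few brainstem cell groups, and its levels varied widely within both groups. Among defeated males its difference was -0.39 (SE 0.44).

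Genes that were higher in ELS libraries without overlap had small differences as well. Adarb2, a brain relative of the RNA-editing enzymes, had 5.31, 6.18, 5.02 and 4.78 RPKM in ELS libraries, against 4.38, 4.72, 3.63 and 3.95 RPKM in standard libraries (0.29, SE 0.09, unadjusted p under 0.05). Ptpn2, a tyrosine phosphatase that dampens cytokine signalling, had 4.43, 4.8, 5.0 and 4.19 RPKM in ELS libraries, against 4.15, 3.63, 3.79 and 3.81 RPKM in standard libraries (0.21, SE 0.07). Kbtbd8, a ubiquitin-ligase adaptor, had 1.23, 1.29, 1.37 and 1.34 RPKM in ELS libraries, against 1.10, 1.11, 1.08 and 1.14 RPKM in standard libraries (0.13, SE 0.04). In Kbtbd8 the gap exceeded the range of the standard libraries, which it did not in Adarb2 or Ptpn2. Ddah1, which breaks down an inhibitor of nitric oxide synthesis, had 38.7, 47.0, 34.6 and 35.2 RPKM in ELS libraries, against 33.7, 31.6, 34.1 and 34.1 RPKM in standard libraries (0.20, SE 0.09), and without ELS control 2 the difference was 0.11. Ppp1cb (a phosphatase catalytic subunit), Upf3a (a factor of nonsense-mediated decay), Car8 (a carbonic anhydrase relative without that activity), Cep57l1, Ehbp1 (an endocytic adaptor), Zfp52 and Mex3c (an RNA-binding ubiquitin ligase) differed by 0.08 to 0.19.

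**Figure D3:**
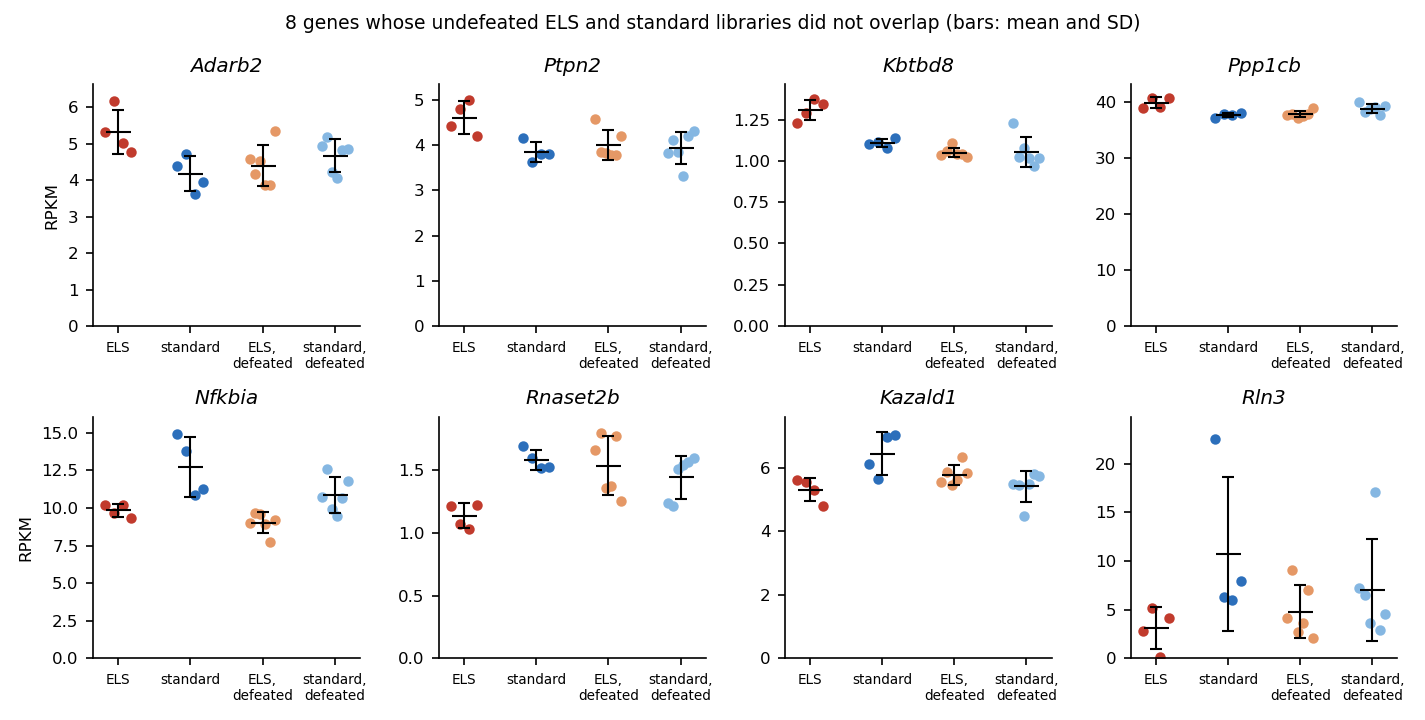
RPKM of 8 genes whose undefeated ELS and standard libraries did not overlap; each point is 1 library, in 4 undefeated ELS, 4 undefeated standard, 6 defeated ELS and 6 defeated standard libraries, with the mean and SD. Nfkbia has lower ELS means in the undefeated and the defeated pair (9.84 against 12.7 and 9.02 against 10.9 RPKM), while Adarb2, Rnaset2b and Kazald1 have defeated differences of the opposite sign.

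Most dopamine genes lay higher in ELS libraries, and Th and Slc6a3 varied more between libraries than between the groups. Of 18 genes of dopamine synthesis and transport, 17 were higher and 1 lower, with a median difference of 0.19, beside 37.3% of all genes higher. None was called or without overlap. Th had 357, 110, 178 and 275 RPKM in ELS libraries, against 278, 202, 146 and 124 RPKM in standard libraries (0.23, SE 0.34). Slc6a3 had 428, 135, 236 and 363 RPKM in ELS libraries, against 387, 231, 210 and 158 RPKM in standard libraries (0.19, SE 0.34). In both genes the lowest library was ELS control 2, the library with thalamic genes, and the highest was ELS control 1. Without ELS control 1 the difference was -0.03 for Th and -0.04 for Slc6a3, without ELS control 2 it was 0.54 and 0.51, and the median of the list ran from 0.0015 without ELS control 1, with 10 of 18 higher, to 0.46 without ELS control 2. Spr, which makes the cofactor of Th, was the one member lower, with 26.8, 23.8, 24.4 and 26.7 RPKM in ELS libraries, against 27.5, 27.9, 27.3 and 26.8 RPKM in standard libraries (-0.10, SE 0.05, unadjusted p under 0.05). The summed level of the list lay between 931.7 and 2033.7 RPKM in ELS libraries, against 1016.3 to 1776.2 RPKM in standard libraries.

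Transcription factors that build and keep dopamine neurons had no common direction with all 8 libraries. Of 15 tested, 8 were higher and 7 lower in ELS libraries, the median was 0.00, and none passed an unadjusted p of 0.05. Otx2, a homeobox factor of the midbrain, had 2.46, 2.0, 2.01 and 2.02 RPKM in ELS libraries, against 2.23, 2.37, 2.15 and 2.24 RPKM in standard libraries. Of the ELS libraries 3 lay below all 4 standard libraries and ELS control 1 lay above them. The difference was -0.06 (SE 0.09), it was -0.11 without ELS control 1, and among defeated males it was -0.07 (SE 0.08). Foxa2, a forkhead factor, had 6.74, 3.75, 4.04 and 5.51 RPKM in ELS libraries, against 4.76, 4.94, 2.73 and 4.15 RPKM in standard libraries (0.22, SE 0.23), and its 2 highest ELS libraries were those highest in Th. Foxa2 differed by 0.087 without ELS control 1 and by 0.072 without standard control 3. The list had 4 of 15 factors higher and a median of -0.09 without ELS control 1, 13 higher and 0.20 without ELS control 2, and 13 higher and 0.32 without ELS control 2 and standard control 1.

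Neuropeptides and hypothalamic genes made the largest negative differences. Hcrt, the wake-promoting peptide orexin of the lateral hypothalamus, had 0.157, 0.384, 3.30 and 0.580 RPKM in ELS libraries, against 2.60, 0.0802, 63.5 and 15.1 RPKM in standard libraries (-2.13, SE 1.32). Pmch, the melanin-concentrating hormone of neighbouring cells, had 0.353, 11.6, 5.20 and 0.166 RPKM in ELS libraries, against 6.36, 0.281, 65.4 and 20.7 RPKM in standard libraries (-1.69, SE 1.45). Tac2, a tachykinin, differed by -1.70 (SE 0.91) and Gh, the growth hormone of the pituitary, by -1.43 (SE 1.30). In all 4 genes standard controls 3 and 4 were the highest libraries, and the groups overlapped. Without standard control 3 the differences of Hcrt and Pmch were -1.13 and -0.82, without standard control 2 that of Pmch was -2.72, and that of Gh was -0.44 without standard control 4 and -2.28 without standard control 1. Barhl1, a homeobox factor of the mammillary and subthalamic region, overlapped through standard control 2 alone, with 0.602, 0.254, 1.41 and 0.119 RPKM in ELS libraries, against 1.76, 0.862, 2.12 and 2.04 RPKM in standard libraries (-0.79, SE 0.24, unadjusted p under 0.05). Of the 9 tested hypothalamic and mammillary genes, 8 were lower and 1 higher, with a median of -0.73, or -0.96 to -0.50 when each library was left out; in defeated males the median was 0.71 with 7 of 9 higher, and in females 0.99 with 7 of 8 higher.

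Among 12 neuropeptides of the VTA itself, 3 were higher and 9 lower in ELS libraries, with a median of -0.29. Without ELS control 2 the median was -0.13 with 5 higher and 7 lower, and over all libraries left out in turn it reached -0.37 without ELS control 3. Cck, the peptide cholecystokinin that many dopamine neurons release, had 65.8, 89.6, 32.7 and 46.9 RPKM in ELS libraries, against 43.0, 40.6, 24.9 and 34.2 RPKM in standard libraries (0.64, SE 0.28, unadjusted p under 0.05). Its highest value was that of ELS control 2, and without this library the difference was 0.41. Nts, neurotensin, had 7.64, 4.89, 7.87 and 6.60 RPKM in ELS libraries, against 8.42, 4.65, 14.0 and 10.7 RPKM in standard libraries (-0.36, SE 0.25), again with the highest values in standard controls 3 and 4. Crh, corticotropin-releasing hormone, had 1.78, 1.09, 1.53 and 1.53 RPKM in ELS libraries, against 2.38, 1.71, 3.33 and 2.26 RPKM in standard libraries (-0.45, SE 0.18, unadjusted p under 0.05). Here 1 pair of libraries kept the groups from separating, since standard control 2 lay below ELS control 1. The hypothalamic genes move with Tac2, Nts and Crh in that standard control 3 is high in all of them. Without it Nts differed by -0.16 and Crh by -0.33, Nts differed by -0.24 without ELS control 2 and by -0.63 without standard control 2, and the part of neighbouring tissue in these differences was not tested.

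The 5 largest positive differences also belonged to genes known from neighbouring nuclei. Ramp3, Prkcd, Gabrd and Tnnt1, genes of thalamic neurons or of high level there, differed by 1.00, 0.98, 0.86 and 0.77, and in each ELS control 2 was the highest of the 8 libraries, at 59.8, 97.0, 16.4 and 14.3 RPKM. Without that library the differences were -0.15, -0.20, -0.06 and -0.03. Tph2, which makes serotonin in the raphe, had 25.7, 7.93, 43.9 and 26.4 RPKM in ELS libraries, against 9.22, 49.1, 11.8 and 3.78 RPKM in standard libraries (0.81, SE 0.65), with the highest value in a standard library. Without ELS control 2 it differed by 1.27, without standard control 2 by 1.44 and without standard control 4 by 0.31. Slc6a4, the serotonin transporter, had its highest ELS and highest standard values in the same libraries as Tph2. Of the 6 raphe genes tested 4 were higher, with a median of 0.26, and without ELS control 2 all 6 were higher with a median of 0.41. The median ran from 0.099 without standard control 4 to 0.51 without standard control 2.

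Synaptic and channel genes were mixed. Kcnip4, a subunit that tunes A-type potassium channels, had 24.3, 26.9, 19.8 and 23 RPKM in ELS libraries, against 19.1, 22, 17.2 and 18.2 RPKM in standard libraries (0.28, SE 0.09, unadjusted p under 0.05). Without ELS control 2 it differed by 0.21, and of 14 potassium and pacemaker channel genes 11 were higher, or 8 without that library. Sema3c, a secreted axon guidance cue, had 1.76, 2.55, 2.90 and 2.41 RPKM in ELS libraries, against 3.47, 2.73, 3.98 and 3.72 RPKM in standard libraries (-0.40, SE 0.13, unadjusted p under 0.05). Only standard control 2 lay within the ELS range. Of 20 axon guidance genes 5 were higher and 15 lower, and without ELS control 2 there were 9 higher and 11 lower. The receptor subunit Gabra4 and the scaffold Shank3 were high in ELS control 2 alone, at 41.0 and 37.3 RPKM, against at most 10.1 RPKM in every other undefeated library.

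By their medians, glial and vascular markers lay close to no difference. Single members went further, and the astrocyte genes ran from -0.57 to 0.10. The medians were 0.03 for 15 myelin genes, 0.00 for 14 microglial genes, -0.01 for 13 astrocyte genes and 0.00 for 13 endothelial genes, and none of these genes passed an unadjusted p of 0.05. Under edgeR the astrocyte, microglial and endothelial medians changed sign, so that they have no direction. Without ELS control 2 and standard control 1, 14 of 15 myelin, 13 of 14 microglial, 8 of 13 astrocyte and 13 of 13 endothelial genes were higher, beside 44.9% of all genes. For 13 pericyte, smooth muscle and fibroblast genes, 5 were higher with all 8 libraries and 13 without those libraries, among which standard control 1 holds the meningeal genes. P2ry12, a receptor of resting microglia, had 9.34, 8.12, 9.67 and 9.12 RPKM in ELS libraries, against 8.96, 8.65, 8.09 and 7.91 RPKM in standard libraries (0.10, SE 0.07). Immediate early genes, which report recent activity, were lower in 16 of 21 and higher in 5, with a median of -0.07 and no gene at an unadjusted p under 0.05; without ELS control 4 there were 10 higher and the median was -0.0098. Chaperones were higher in 14 of 16 with a median of 0.04. Hsp90ab1, an abundant chaperone that also holds steroid receptors, was without overlap at 575, 544, 555 and 546 RPKM in ELS libraries, against 530, 534, 542 and 531 RPKM in standard libraries (0.05, SE 0.03). Of 20 enzymes and partners of H3K4 methylation, 6 were higher and 14 lower with a median of -0.04, or 8 higher and -0.01 without ELS control 2. Setd7, which places 1 methyl group on H3K4, had the largest difference of the 20 (0.16, SE 0.08), and without ELS control 2 it differed by 0.081. Oxidative phosphorylation genes (9 of 24 higher) and mitochondrial ribosome genes (7 of 18 higher) both had a median of -0.01, which turned positive under quantile normalisation and edgeR. None of the 24 oxidative phosphorylation genes was higher without ELS control 2, at a median of -0.03, and 18 were higher without ELS control 3, at a median of 0.03. The mitochondrial ribosome list had 4 of 18 higher and a median of -0.03 without standard control 4.

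The other lists were described in the same way, and most depended on which libraries were kept. Excitatory neuron genes were higher in 8 of 9 with all libraries and in 2 of 9 without ELS control 2 and standard control 1. AMPA and NMDA receptor genes were higher in 10 of 14 with all libraries and in 3 of 14 without those libraries. Interferon response genes went the other way, with 3 of 12 higher against 10 of 12, as did oligodendrocyte precursor genes, with 2 of 10 against 8 of 10. Haemoglobin and Alas2, which mark blood, had 4 of 5 genes higher and a median of 0.31, or 5 of 5 and 0.71 without those libraries and 0.10 without ELS control 3, and Hba-a1 and Hba-a2 are near-identical copies whose reads can be shared. All 8 ependyma and choroid plexus genes tested were lower with a median of -0.11, and Ttr, a choroid plexus transport protein, had 2.34, 15.2, 5.96 and 1.88 RPKM in ELS libraries, against 21.2, 2.96, 4.33 and 10.1 RPKM in standard libraries (-0.56, SE 0.52), with high and low libraries in both groups. Without standard control 1 Ttr differed by -0.10 and without ELS control 2 by -1.06. The median of its list ran from -0.25 without ELS control 3 to -0.065 without standard control 4, with 2 of 8 higher without ELS control 2 and 3 of 8 without standard control 4.

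Medians of the remaining lists were small and moved with single libraries. Inhibitory neuron genes had 6 of 13 higher and a median of -0.09, which was -0.0042 without ELS control 2, -0.0026 without standard control 2 and -0.12 without standard control 1. GABA-A receptor genes had 5 of 14 higher and a median of -0.05; it was -0.11 without standard control 2 and 0.0049 without standard control 4, and 3 of 14 were higher without ELS control 2. Perineuronal net genes, whose products sheathe neurons, had 2 of 9 higher and a median of -0.06, or -0.02 without ELS control 3. Neurotrophic factors and receptors had 4 of 9 higher and a median of -0.05, which turned positive under edgeR and was 0.0055 without ELS control 2 and 0.044 without standard control 3. No direction was therefore common to all settings in the GABA-A and neurotrophic lists.

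Stress hormone and CRF signalling genes (6 of 13 higher), circadian clock genes (5 of 12) and Wnt genes (6 of 15) had medians within 0.01 of 0 with all 8 libraries. Without standard control 1 the stress hormone median was -0.08. Only 1 of the 12 clock genes was higher without ELS control 2, with a median of -0.09, and 7 were higher without ELS control 1, with a median of 0.03. The Wnt median ran from -0.04 without standard control 3 to 0.01 without standard control 4. Red nucleus and motor neuron genes had 3 of 4 higher and a median of 0.15, which ran from 0.037 without ELS control 4 to 0.24 without ELS control 1. Across all of these lists 0 members were called.

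**Figure D4:**
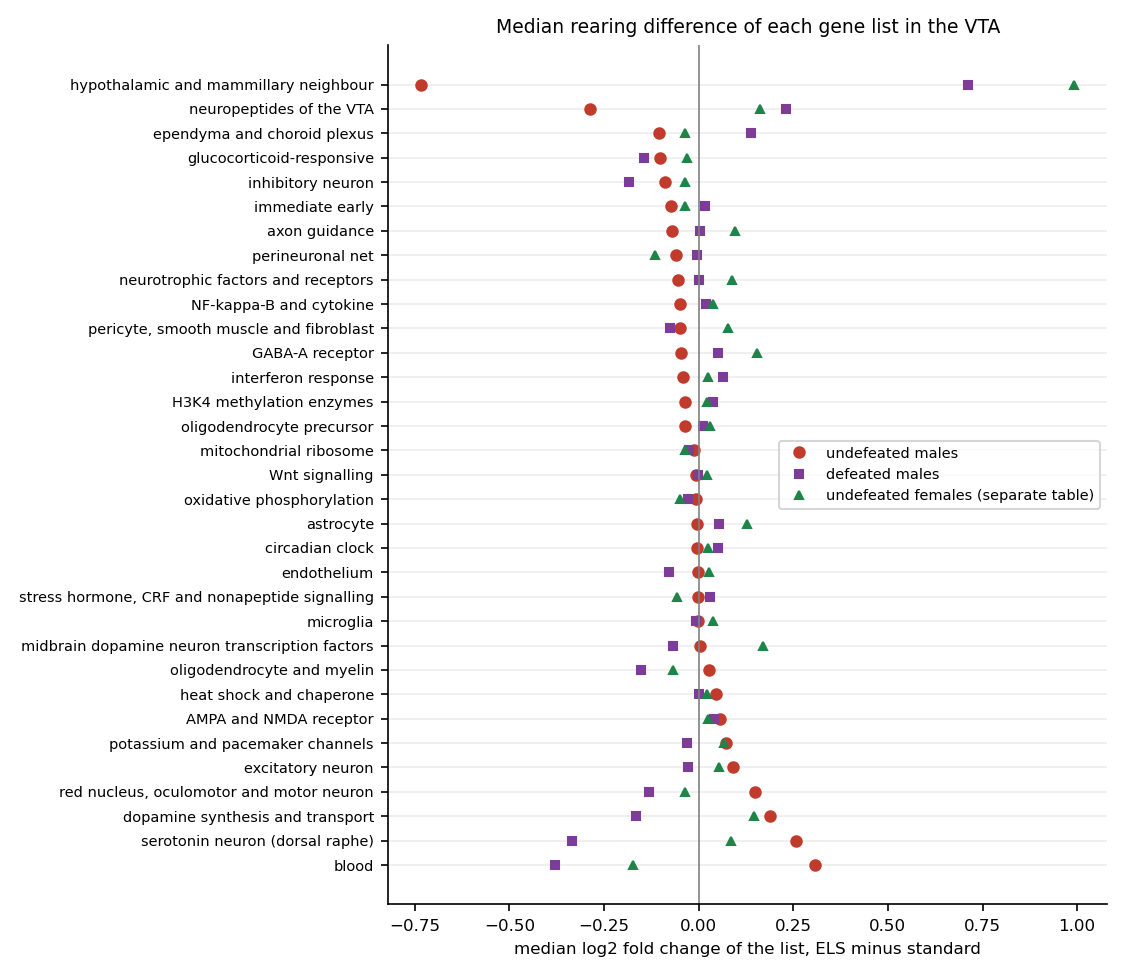
Median log2 fold change, ELS minus standard, of 33 gene lists in undefeated males (circles), defeated males (squares) and unstressed females (triangles, a separately normalised table). The hypothalamic and mammillary list lies at -0.73 in undefeated males and at 0.71 in defeated males, and the glucocorticoid-responsive list at -0.10 and -0.14.

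The rearing difference of most genes had another sign among defeated males. Among defeated males limma called 0 genes, and 841 (5.77%) had an unadjusted p under 0.05, 662 higher after ELS and 179 lower, with 936 by edgeR. Over the 14586 genes the undefeated and defeated differences, which share no library but do share the normalisation and the fit, had a Pearson r of -0.28 and a Spearman rho of -0.31 across genes, which are not independent. The sign was the same in 38.4% of all genes, in 30.4% of the 296 genes at an unadjusted p under 0.05, and in 9 of the 31 genes at that level in both comparisons. Higher after ELS were 37.3% of all genes in undefeated males and 55.3% in defeated males, and these unequal shares by themselves lower the share of equal signs. No value under another scaling or without a library is given for the sign shares or the correlations. The test of the difference between both rearing effects called 0 genes (lowest adjusted p 0.513), with 797 genes (5.46%) at an unadjusted p under 0.05 and 854 by edgeR. Nfkbia was lower after ELS in both, and its effects differed by -0.09 (SE 0.12). Of the 24 leading genes without overlap, Ptpn2, Cep57l1, Med27, Nfkbia and Rln3 kept their sign among defeated males, and the others had the opposite sign. Upf3a (-0.10), Car8 (-0.12) and Ehbp1 (-0.09), higher after ELS in undefeated males, were lower in defeated males at an unadjusted limma p under 0.05. Kcnip4 differed by -0.15 among defeated males and Sema3c by 0.13, so that their undefeated effects stood 0.43 (SE 0.11) above and 0.53 (SE 0.17) below the defeated ones. Dopamine genes, 17 of 18 higher after ELS in undefeated males and 10 of 18 without ELS control 1, were lower in all 18 in defeated males, with a median of -0.16, and no member passed an unadjusted p of 0.05 there. The difference between both rearing effects was 0.49 for Th and 0.36 for Slc6a3, neither at an unadjusted p under 0.05.

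**Figure D5:**
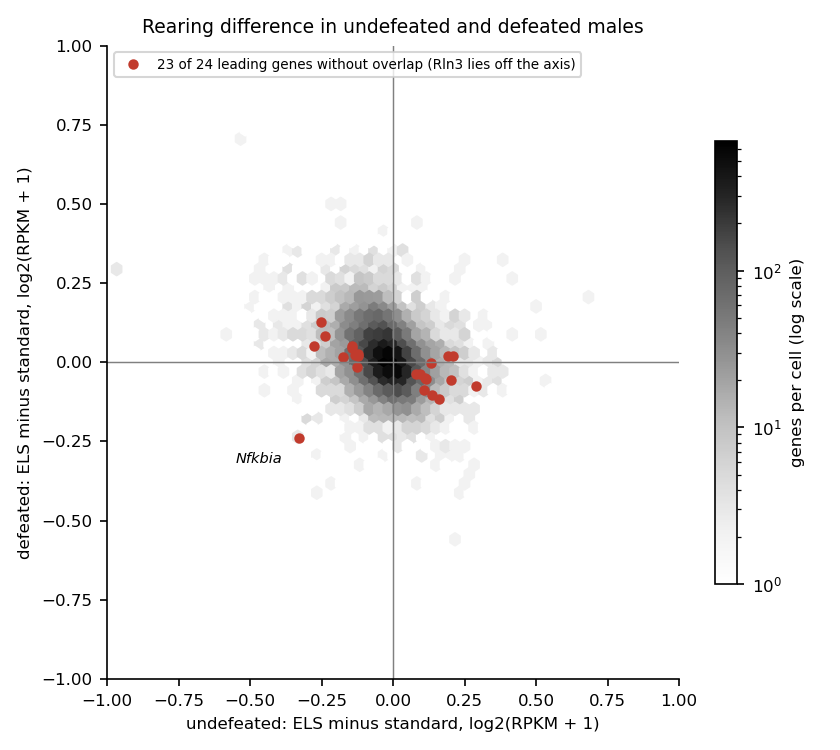
Difference ELS minus standard, log2(RPKM + 1), in undefeated males (x axis) and defeated males (y axis); grey cells count genes on a log scale, and red points are 23 of the 24 leading genes without overlap. In all 6 genes lie beyond the axes, Rln3 among them. The cloud leans from upper left to lower right, and Nfkbia is the red point lying low on both axes.

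Unstressed females gave no called gene either, with 591 of 14000 genes at an unadjusted p under 0.05 (limma), 366 higher after ELS (2.61%) and 225 lower (1.61%), and 626 by edgeR. Of the male genes at an unadjusted p under 0.05 that were tested in females, 53.1% had the same sign, against 44.4% of the 13117 genes tested in both. Otx2 averaged 254.5 ± 30.2 normalised reads after ELS (SD, n = 5) and 261.5 ± 37.6 after standard rearing (SD, n = 6), a difference of -0.04 (SE 0.10). Th and Slc6a3 differed by 0.19 (SE 0.33) and 0.34 (SE 0.39), and 14 of 18 dopamine genes were higher with a median of 0.15.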

How the data were processed

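Poly-A RNA of VTA punches was sequenced from unstranded TruSeq libraries as 100-bp single-end reads, per the labels' protocols. The values that the authors deposited for male VTA are RPKM. The submitters' processing notes list MACS2 2.1.1, SAMtools 0.1.19, Bowtie2 2.2.0, HTSeq and TopHat2 and the builds mm10 and mm9, and say nothing of their roles. For females the authors deposited a signal, gene counts divided by 1 factor per library. No source used here names the tool behind these factors. Reads of a gene and its antisense partner cannot be told apart.

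The male table held 37991 genes, of which 181 without values were left out. With exon lengths of the mm9 annotation, 98.0% of RPKM values were whole reads (tolerance 0.02 reads), 27.9 to 36.0 M per library. Female reads, also recovered, came to 19.2 to 41.2 M.

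The 20 male libraries entered 1 limma fit (version 3.58.1 under R 4.3.3, with the trend and robust options) of log2(RPKM + 1), with 1 coefficient per group and p-values adjusted by Benjamini-Hochberg over 14586 genes with a mean of at least 0.5 RPKM. Females were fitted apart, on 22 libraries and the 14000 genes of highest mean. The 6 ELS and 5 standard STVS libraries were among the 22, with their own coefficients, and shared in the estimate of spread behind the female SE and p-values. P-values printed as limma's are unadjusted unless called adjusted. The pools are separate samples per the labels, which do not say whether pools share litters. All pairs of libraries of a group differed beyond sampling noise, so none was merged.

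Named were, among genes without overlap between the groups, the 12 of smallest p in each direction, the 5 of largest difference each way, the list members without overlap or else the 2 of smallest p, and Otx2, Th and Slc6a3. A gene that this rule names is not reported here. The comparison, the lists and their members were chosen with earlier results of these data known. The alternatives were no filter or a minimum of 1 RPKM, log2(RPKM + 0.1), quantile normalisation, the 8 libraries alone, plain limma, the replicate number as a block, and leaving out each library. Alternatives and lists added once the data had been seen were edgeR 4.0.16 (recovered reads), the fit without ELS control 2 and standard control 1, and the thalamic and meningeal lists. The kappa-B motif was narrowed after a looser pattern had matched a large share of all promoters. The fit was tested on simulated data first. Chromatin and input samples, 16 in all, were not used.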

Additional observations from a re-analysis of the deposited data

Results flagged for a closer look

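Among 258 sets of 4 values examined, 20 held a library far from the other 3 of its group by Dixon's criterion for 4 values. The rate of about 1 in 20 sets by chance does not apply, since many of the genes were named for these same values. Ramp3, Prkcd and Gabrd were named for large differences that rest on ELS control 2, and the thalamic list was put together after the values were seen. ELS control 2 held 9 of the 20. It was high in Ramp3 (59.8 RPKM, the other ELS libraries 1.19 to 2.32), Prkcd (97.0 RPKM, the others 2.17 to 4.00), Gabrd (16.4 RPKM, the others 0.281 to 0.484), Shank3 (37.3 RPKM, the others 7.72 to 9.86), Gabra4 (41.0 RPKM, the others 7.02 to 8.96), Hcn4 (7.90 RPKM, the others 3.91 to 4.40), Lef1 (4.87 RPKM, the others 0.621 to 0.756) and Npas2 (3.37 RPKM, the others 1.02 to 1.20). Its score over the thalamic list, the median of the members' centred log2 values, was 2.77, and the other ELS libraries lay between -0.77 and -0.20.

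ELS control 3 was high in Aldh1l1, an astrocyte enzyme (17.0 RPKM, the others 14.2 to 14.4), in the astrocyte score (0.13), in Clic6, a choroid plexus gene (1.34 RPKM, the others 0.880 to 0.930), and in the ependyma and choroid plexus score (0.04, the others -0.17 to -0.14). ELS control 1 was high in Otx2 (2.46 RPKM, the others 2.0 to 2.02), the value that kept the ELS libraries from lying below the standard libraries.

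Standard control 1 was high in the score of dopamine neuron transcription factors (0.21, the others -0.06 to -0.05). Standard control 2 was low in Ddah1 (31.6 RPKM, the others 33.7 to 34.1). Standard control 3 was low in Trip10 (3.18 RPKM, the others 3.51 to 3.54) and high in Gabrd (0.842 RPKM, the others 0.261 to 0.342). Standard control 4 was low in Stat2 (5.49 RPKM, the others 5.99 to 6.08) and Hcn4 (3.39 RPKM, the others 4.07 to 4.19). No gene passed the test of a difference between the undefeated and defeated rearing effects.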

How the results depend on the processing

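The number of called genes was 0 under every alternative run, in undefeated males, defeated males, their difference and females. Genes at an unadjusted p under 0.05 (296) were 832 with no filter and 237 to 643 when each library was left out, the most without ELS control 3. Genes without overlap (213) were 383 with no filter, 392 to 880 when each library was left out, and 1015 without both libraries that stand apart, where fewer libraries have to separate. Without both libraries, the difference changed sign in Ramp3 (-0.25), Prkcd (-0.25), Gabrd (-0.11), Tnnt1 (-0.086), Nrn1 (-0.025), Abcb1a (0.067), Kdr (0.065), Lum (0.040), Dcn (0.15), Dusp1 (-0.032), Shank3 (-0.032) and Npas2 (-0.034).

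When each library was left out in turn, differences ran from -0.15 to 1.45 in Ramp3, -0.20 to 1.45 in Prkcd, -0.061 to 1.19 in Gabrd, -0.027 to 1.12 in Tnnt1, -0.16 to 0.020 in Abcb1a, -0.14 to 0.0057 in Kdr, -0.63 to 0.018 in Dcn, -0.0082 to 0.25 in Dusp1, -0.0043 to 0.71 in Shank3, -0.023 to 0.35 in Npas2, -0.026 to 0.54 in Th and -0.043 to 0.51 in Slc6a3. The cause of these changes was not tested. In all, 25 of the values of named genes under an alternative changed sign and 1564 did not. The replicate number as a block gave 356 genes at an unadjusted p under 0.05 and 0 called. Deviations of same-numbered ELS and standard libraries correlated by -0.01, 0.02, 0.25 and -0.35, so the numbers were not taken to pair the libraries. With 4 pools a group and a median SE of 0.07, the number of pools limits the precision.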
